A study of Rattus norvegicus with 12 samples.

Results

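The genes described here are Litaf, its LITAF-domain relative Cdip1, and 7 genes of NEDD4-type ubiquitin ligases and their adaptors. The 7 are the ligase genes Nedd4, Nedd4l, Itch, Wwp1 and Wwp2 and the adaptor genes Ndfip1 and Ndfip2. All 9 genes were chosen by gene name and were found, 1 row each, among the 16204 rows of the gene count table. All 9 also passed the filter on low counts, with at least 97 reads in every library. RNA was sequenced in bulk from H9C2, a rat heart-derived myoblast line, in 3 groups of 4 libraries. The LITAF group (H_R_OE) received a lentiviral vector that overexpresses LITAF and then spent 8 h at 1% oxygen and 2 h back at normal oxygen. The H/R group (H_R) had the same hypoxia and reoxygenation after an empty lentiviral vector. The control group (NC) stayed at normal oxygen and received no vector, so a comparison with control cannot tell the vector from H/R. The labels do not give the promoter of the vector, the species of its LITAF insert, or whether the replicates were separate cultures, so p-values measure only the spread between these libraries.

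LITAF is a small membrane protein of late endosomes and lysosomes, first described as a factor induced by bacterial lipopolysaccharide. Its LITAF domain binds zinc and anchors the protein to the membrane, and its N-terminal part carries PPxY motifs, short proline-rich stretches that are recognised by the WW domains of NEDD4-type ligases. These ligases share a C2 domain that binds membranes, several WW domains, and a catalytic HECT domain that attaches ubiquitin to membrane proteins and sends them to endosomes and lysosomes. NDFIP1 and NDFIP2 are membrane adaptors with PPxY motifs that recruit and activate the ligases. CDIP1 is a p53-induced protein that promotes cell death. In heart muscle, NEDD4-type ligases are known to act on ion channels.

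The libraries held 17.2 to 18.4 M reads with the LITAF vector, 16.9 to 18.1 M with the empty vector and 19.2 to 20.7 M without H/R. Values that were not whole numbers made up 11.7 to 12.4% of the LITAF columns, 11.2 to 12.1% of the H/R columns and 2.77 to 3.33% of the control columns, so the control values may have been made differently, which cannot be told apart from the effect of H/R. H/R and control libraries with the same replicate number deviated together from their group means, with correlations across genes of 0.30 to 0.57, so their libraries were not independent. Markers of cardiac muscle were only partly present. The cardiac muscle genes Myh6 and Actn2 had 3 to 18 and 0 to 14 reads per library, while the other 3 of the 5 cardiac markers were present, with 765 to 7859 reads for the thin-filament gene Tnnt2, 95 to 360 for Nkx2-5 and 279 to 715 for Gata4. Tnnt2 was 2.49-fold higher with LITAF than with the empty vector with an adjusted p of 0.00296 from edgeR. Nkx2-5 at log2 0.05 and Gata4 at log2 -0.11 did not pass in that comparison. Among the skeletal muscle markers, Myh3 rose by log2 2.15 there, and Myod1, Myog and Des did not pass. The leukocyte gene Ptprc had 0 to 3 reads per library. The muscle regulator Myog averaged 32.0 CPM in LITAF libraries, 14.1 CPM in H/R libraries and 3870 CPM in control libraries. Myod1 averaged 99.8 CPM in LITAF libraries, 88.0 CPM in H/R libraries and 258 CPM in control libraries. The summed level of the 4 skeletal muscle markers was 153 to 183 CPM in LITAF, 113 to 133 CPM in H/R and 1625 to 5951 CPM in control libraries, with 3 of 4 markers lower and 1 higher in H/R than in control. The 5 cardiac markers summed to 164 to 221 CPM in LITAF, 80.3 to 110.1 CPM in H/R and 208 to 447 CPM in control libraries. Most of that sum was Tnnt2, with means of 169 CPM in LITAF, 67.9 CPM in H/R and 304 CPM in control libraries. For H/R against control, Tnnt2 fell 4.47-fold and Gata4 1.91-fold, while Nkx2-5 rose 2.41-fold. Endothelial markers were at or near 0 throughout. The 4 fibroblast markers summed to 26021 to 33993 CPM in LITAF, 22198 to 25219 CPM in H/R and 52768 to 69970 CPM in control libraries, nearly all of it from the collagen genes Col1a1 and Col1a2, which were 2.77-fold and 2.53-fold lower in H/R than in control, while Dcn was at 0 reads. The part of these shifts in the results was not tested.

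The promoter sequences of 3 members are shown. Litaf is the gene the study targeted. Wwp2 is an example of the ligase genes that were higher in H/R than in control libraries, and Nedd4 of those that were lower. The sequences are from RefSeq, which had promoters for 8 of the 9 members (not Wwp1), on build GRCr8, plus strand, 5′ to 3′, and end at the base before the gene's annotated start. Litaf is shown from chr10:5163008-5163257, Wwp2 from chr19:52256313-52256562 and Nedd4 from chr8:82264545-82264750. Capitals mark ACGTG or GCGTG on either strand, the core that hypoxia-inducible factors bind.
Litaf: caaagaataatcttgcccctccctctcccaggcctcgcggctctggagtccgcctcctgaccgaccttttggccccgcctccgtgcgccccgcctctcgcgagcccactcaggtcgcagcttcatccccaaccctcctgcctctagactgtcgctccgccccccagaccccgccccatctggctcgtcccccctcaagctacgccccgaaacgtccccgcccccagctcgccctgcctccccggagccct
Wwp2: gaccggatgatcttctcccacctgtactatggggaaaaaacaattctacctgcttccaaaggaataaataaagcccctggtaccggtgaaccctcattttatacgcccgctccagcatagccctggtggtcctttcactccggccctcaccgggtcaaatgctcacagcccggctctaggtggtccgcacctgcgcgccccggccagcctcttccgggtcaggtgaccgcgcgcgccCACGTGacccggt
Nedd4: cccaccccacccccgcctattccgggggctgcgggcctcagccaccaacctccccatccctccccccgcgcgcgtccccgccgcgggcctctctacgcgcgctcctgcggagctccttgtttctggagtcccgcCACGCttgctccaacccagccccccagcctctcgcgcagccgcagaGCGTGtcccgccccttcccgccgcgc
The Litaf window held no such core, and the 206-base Nedd4 window held 2, starting 72 and 26 bases before the gene start. In the Wwp2 window the core occurred once on each strand, overlapping in 1 CACGTG, which starts 13 bases before the gene start. Of 33469 rat promoters, 36.7% held the core in the same 250 bases and 31.4% in the first 206, and 5.59% held CACGTG in the 250 bases. These matches describe the letters in these windows only.

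The first comparison asks what the LITAF vector changed in cells that all went through H/R. Litaf itself was the check of the design. Its level was 2691, 2008, 2532 and 2120.3 CPM (reads per M of the TMM-scaled library size) in LITAF libraries 1 to 4, against 549, 619, 573 and 598 CPM in H/R libraries 1 to 4. Every LITAF library was far above every H/R library, and the groups did not overlap. The mean was 2338 ± 326 CPM with the LITAF vector, against 585 ± 30.0 CPM with the empty vector (SD, 4 libraries per group), a log2 fold change of 2.00 ± 0.10 (SE) with a 95% interval of 1.78 to 2.22 and an adjusted p of 1.38e-08 by edgeR's quasi-likelihood test. Reads of the vector's insert and of the endogenous gene are not separated in the table, and in bulk RNA a larger share of transduced cells and more RNA per cell cannot be told apart.

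No other member passed the test for the LITAF vector. Thus 1 of 9 members was called, where the background over all 11398 genes tested was 4.88% (3.73% higher and 1.15% lower). Of the calls over all genes, 76.4% were rises under TMM, a share that was 66.5% under upper-quartile scaling and 61.0% when only library totals were used. Without LITAF library 1, 692 genes were higher and 593 lower (53.9% rises), against 425 and 131 with all libraries, and without LITAF library 4 there were 212 and 32 (86.9%). Without any 1 of the other LITAF or H/R libraries, 205 to 342 were higher and 39 to 72 lower. At an unadjusted p under 0.05 there were 4 members, Litaf, Nedd4l, Itch and Wwp1, and 20.0% of all genes were under that limit. The median log2 fold change of the members was -0.06, and over all genes it was -0.01. DESeq2 also called 1 member, Litaf.

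Cdip1, which shares the LITAF domain, had 13.8, 15.9, 13.9 and 14.3 CPM in the LITAF libraries, against 16.1, 15.2, 14.3 and 15.8 CPM in the H/R libraries. The groups overlapped, and the log2 fold change of -0.09 had a 95% interval of -0.41 to 0.24. A rise in Cdip1 of the size seen in Litaf lies outside that interval. For Wwp2 the difference was log2 -0.01 with an interval of -0.22 to 0.21. The adaptor genes stood at log2 -0.01 (interval -0.28 to 0.25) for Ndfip1 and -0.06 (-0.33 to 0.21) for Ndfip2. Nedd4, the founding member of the ligase family, was at log2 -0.07 (-0.35 to 0.21).

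Nedd4l, a ligase of ion channels and transporters, came closest to a rise. It had 30.4, 27.7, 31.0 and 33.1 CPM in the LITAF libraries, against 22.6, 25.7, 26.8 and 26.6 CPM in the H/R libraries. Every LITAF library was above every H/R library, as the groups of 18.9% of all genes did not overlap in this comparison. The log2 fold change was 0.27 ± 0.11 with an interval of 0.03 to 0.50, and the adjusted p was 0.192 by edgeR's quasi-likelihood test. It did not pass in any fit that left out 1 library, where the adjusted p was 0.138 to 0.439.

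**Figure D1:**
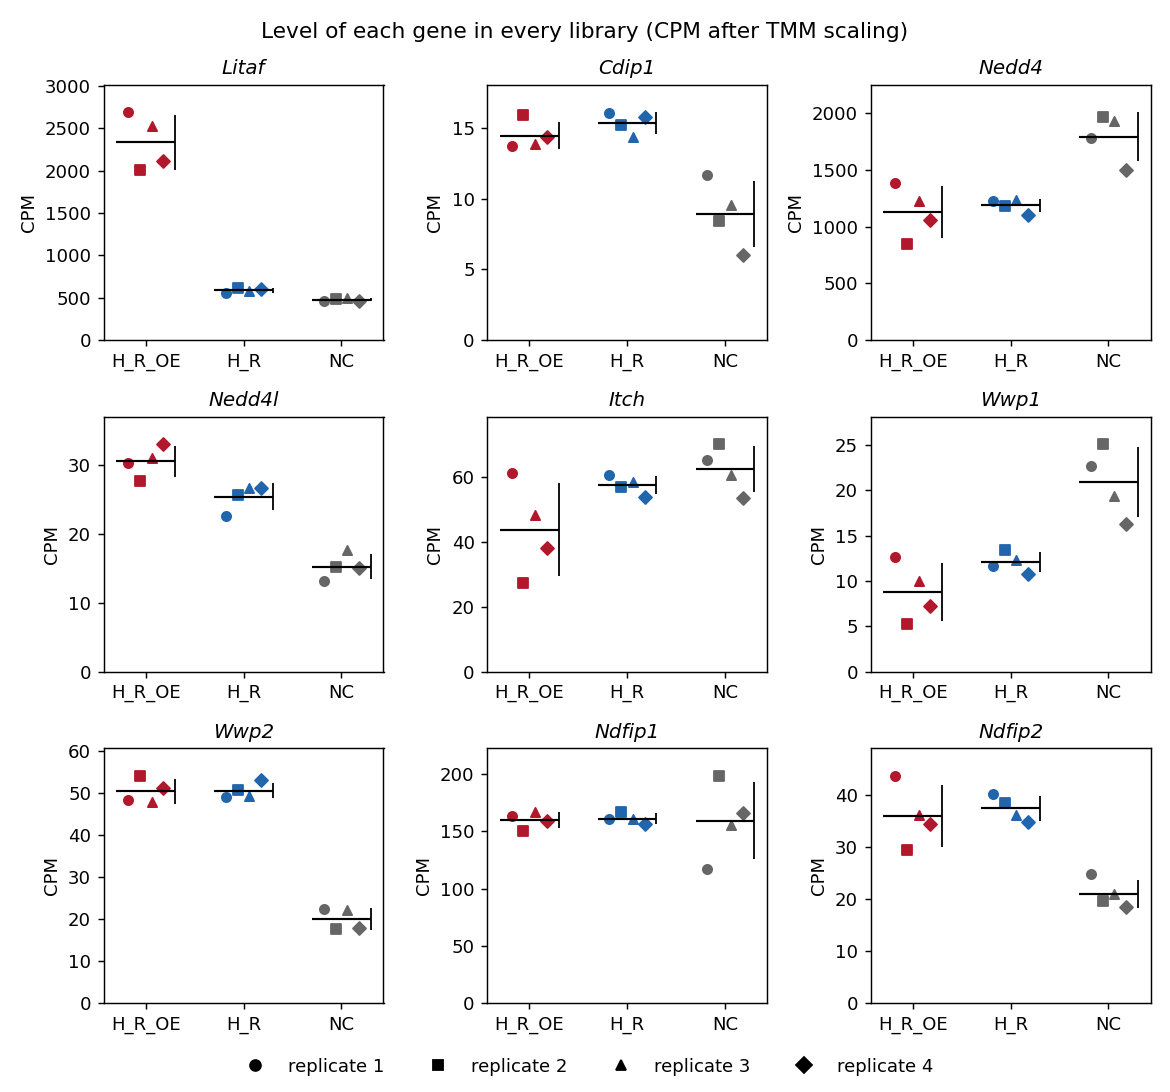
Level of each of the 9 genes in CPM (y axis, linear, from 0) in the LITAF (H_R_OE), H/R (H_R) and control (NC) groups, with 1 point per library, the group mean as a horizontal line and ± 1 SD as a vertical line (n = 4). Litaf stands at 2008 to 2691 CPM in the LITAF group, and Itch and Wwp1 spread widely within that group. The control group lies apart from both H/R groups for every gene except Itch and Ndfip1.

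Itch and Wwp1 were the members that spread most within the LITAF group. ITCH is a ligase of JUN-family proteins and immune signalling, and WWP1 a ligase of KLF-type transcription factors. Itch had 61.3, 27.5, 48.4 and 38.1 CPM in LITAF libraries 1 to 4, against 60.8, 57.0, 58.7 and 54.0 CPM in H/R libraries 1 to 4. The highest LITAF library was thus at the H/R level, and the other 3 were below all H/R libraries. The highest level was 2.23 times the lowest within the LITAF group and 1.13 times within the H/R group. The log2 fold change was -0.39 ± 0.18, with an adjusted p of 0.229 by edgeR's quasi-likelihood test.

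Wwp1 followed the same order, with 12.6, 5.30, 10.0 and 7.20 CPM in LITAF libraries 1 to 4, against 11.7, 13.5, 12.4 and 10.8 CPM in H/R libraries 1 to 4. LITAF library 1 lay within the H/R range and the other 3 below it. The log2 fold change was -0.46 ± 0.21, with an adjusted p of 0.233 by edgeR's quasi-likelihood test. Without LITAF library 1, both genes passed as lower, so that 3 members were called in place of 1. Itch was at log2 -0.59 with an adjusted p of 0.0202 and Wwp1 at log2 -0.67 with an adjusted p of 0.0314 by the same test. In that fit 11.2% of all genes were called and 593 were lower, against 4.88% and 131 with all libraries. Without LITAF library 2, the values were log2 -0.23 for Itch and -0.29 for Wwp1, both not passing.

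This spread ran along an axis of the whole transcriptome that held 52.3% of the variance within the LITAF and H/R groups. On it LITAF library 1 scored 0.68, library 3 0.20, library 4 -0.25 and library 2 -0.63, while the H/R libraries lay between -0.12 and 0.13. From high to low, the LITAF libraries came in the order 1, 3, 4, 2 for 5 of the 9 members, namely Litaf, Nedd4, Itch, Wwp1 and Ndfip2. That order was also the order of 24.0% of all genes tested, and 21.3% had its reverse, as Cdip1 did. Among the loadings of all genes on the axis, Wwp1 stood at percentile 95.1, Itch at 93.8, Nedd4 at 85.1, Ndfip2 at 79.2 and Litaf at 75.3. Ndfip1 stood at 60.7, Nedd4l at 57.5, Wwp2 at 36.3 and Cdip1 at 34.3. The axis is computed from these same genes, and what it reflects was not tested.

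**Figure D2:**
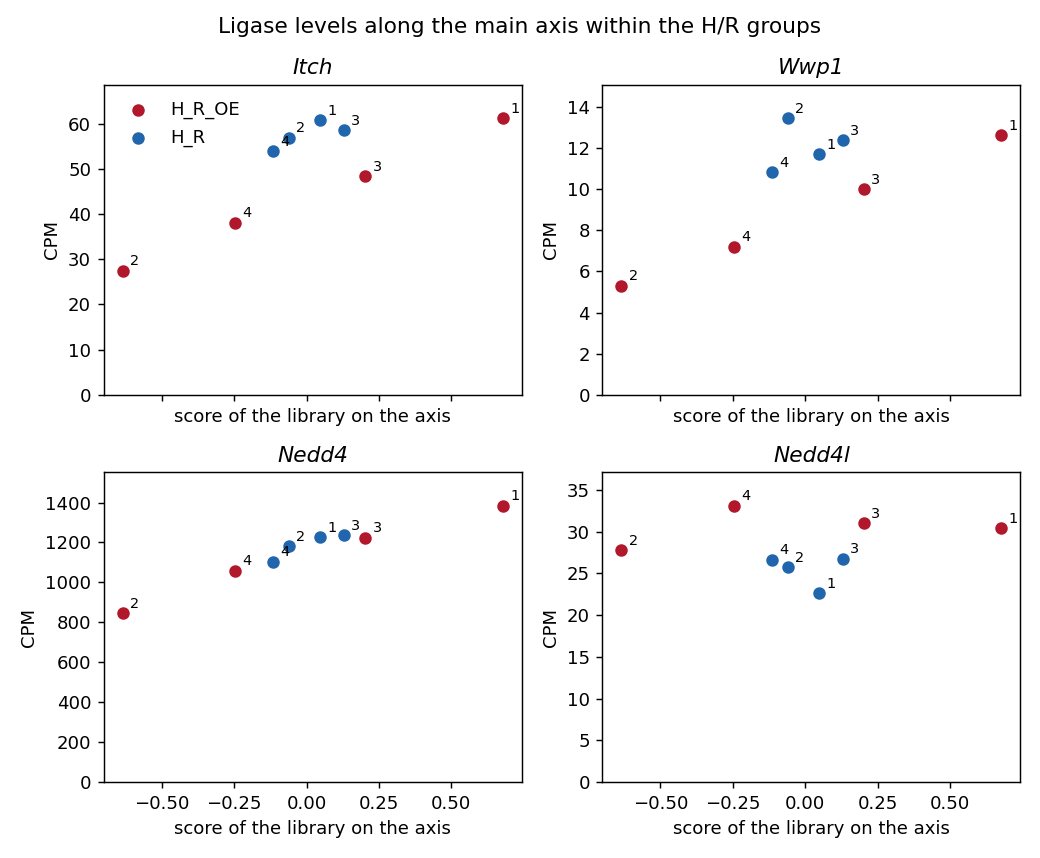
Level in CPM (y axis, linear, from 0) of Itch, Wwp1, Nedd4 and Nedd4l in the 4 LITAF (H_R_OE) and 4 H/R (H_R) libraries against the score of each library on the main axis of variation within these groups (x axis, no unit). Each point is 1 library, marked with its replicate number. Itch and Wwp1 are lowest in LITAF library 2 and highest of the LITAF libraries in library 1, while Nedd4l shows no such order.

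The second comparison sets cells after H/R with an empty vector against control cells. Here 5 members rose, 2 fell and 2 did not pass. The 7 of 9 members called stand beside 63.6% of all genes called, so a call in this comparison is common and the share says little about the members as a group. The direction and size of each gene are given for that reason. Every call below kept its direction and its side of the threshold with the replicate number as a block.

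Wwp2, a ligase that also regulates metal ion transporters, rose most. It had 49.1, 50.7, 49.2 and 53.0 CPM in the H/R libraries, against 22.3, 17.7, 22.1 and 17.8 CPM in the control libraries. The groups were far apart, with a log2 fold change of 1.34 ± 0.11 and an adjusted p of 1.80e-08 by edgeR's quasi-likelihood test, a 2.53-fold rise.

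Its closest relative Wwp1 moved the other way. It had 11.7, 13.5, 12.4 and 10.8 CPM in the H/R libraries, against 22.7, 25.1, 19.4 and 16.3 CPM in the control libraries. All H/R libraries were below all control libraries, and the log2 fold change was -0.79 ± 0.20 with an adjusted p of 0.00307. Nedd4 fell with it, to 1227, 1181, 1235 and 1104 CPM in the H/R libraries, against 1785, 1965, 1935 and 1496 CPM in the control libraries. The groups did not overlap, and the log2 fold change was -0.60 ± 0.13 with an adjusted p of 0.000922.

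Nedd4l, which is close to Nedd4 in sequence, rose. It lay between 22.6 and 26.8 CPM in H/R libraries, against 13.2 to 17.7 CPM in control libraries, with a log2 fold change of 0.73 ± 0.11 and an adjusted p of 3.03e-05. Cdip1, a gene of low level, also rose, with 16.1, 15.2, 14.3 and 15.8 CPM in the H/R libraries, against 11.7, 8.45, 9.57 and 6.04 CPM in the control libraries. The control libraries differed among themselves more than the H/R libraries did, and the groups did not overlap. The log2 fold change of Cdip1 was 0.78 ± 0.16 with an adjusted p of 0.000371.

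The adaptor genes parted. Ndfip2 rose, with 40.3, 38.5, 36.3 and 34.9 CPM in the H/R libraries, against 24.8, 19.7, 21.0 and 18.6 CPM in the control libraries, log2 0.83 ± 0.13 and an adjusted p of 3.09e-05. Ndfip1 was at 161, 167, 160.4 and 156 CPM in the H/R libraries, against 117, 199, 155 and 166 CPM in the control libraries. Its control libraries lay on both sides of the H/R libraries, and the log2 difference was 0.02 with an interval of -0.25 to 0.28.

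Litaf rose least of the called genes. Its 549 to 619 CPM in the H/R libraries lay above the 456 to 491 CPM of the control libraries, with a log2 fold change of 0.31 ± 0.10 and an adjusted p of 0.0145. Neither group held the LITAF vector, so these reads came from the cells' own gene. Itch did not pass. It lay between 54.0 and 60.8 CPM in H/R libraries, against 53.6 to 70.2 CPM in control libraries, log2 -0.12 with an interval of -0.49 to 0.26, and the sign turned to log2 0.01 when libraries were scaled by their totals alone. The 7 members called were also those whose libraries of one group all lay on one side of the other group, as did 58.6% of all genes. All adjusted p-values of this comparison are from edgeR's quasi-likelihood test.

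**Figure D3:**
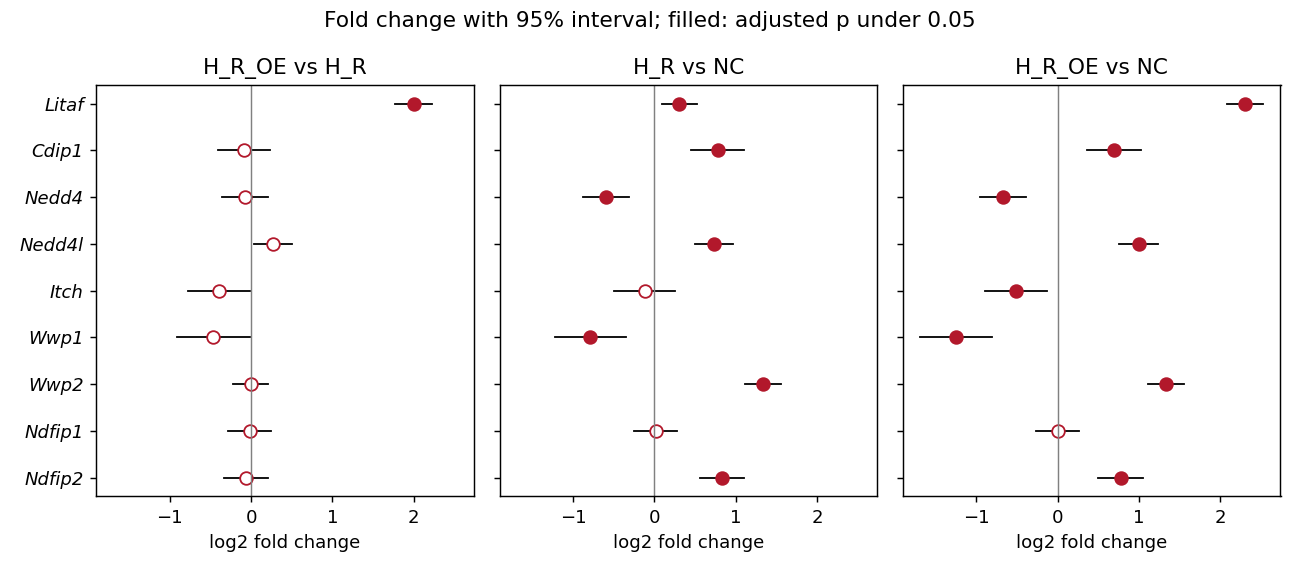
Log2 fold change (x axis) of each gene with its 95% interval (line) in the 3 comparisons, each in the direction of its panel title; filled points have an adjusted p under 0.05. Litaf is the only filled point for LITAF against H/R, while Wwp2 at log2 1.34 and Wwp1 at -0.79 lie furthest apart for H/R against control.

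The third comparison sets the LITAF group against control, with which it shares neither vector nor H/R. It called 8 of 9 members, 5 higher and 3 lower, beside 64.6% of all genes, 32% higher and 32.6% lower. For 7 members the groups did not overlap, beside 52.1% of all genes. Litaf rose by log2 2.31 ± 0.11, Wwp2 by 1.33 ± 0.11, Nedd4l by 1.00 ± 0.11, Ndfip2 by 0.77 ± 0.13 and Cdip1 by 0.69 ± 0.16. Wwp1 fell by 1.25 on the log2 scale, Nedd4 by 0.67 and Itch by 0.51. Itch was at an adjusted p of 0.0189 by edgeR's quasi-likelihood test and did not pass without LITAF library 4 (0.0605) or without control library 2 (0.0586). Ndfip1 stood at log2 0.00 with an interval of -0.26 to 0.27. This comparison shares its libraries with the other two, so its values are no separate evidence.

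Read across the groups, the levels of the members fell into a few orders. Litaf was highest in the LITAF group, next in the H/R group and lowest in the control group, and each step passed the test. Wwp2, Cdip1, Ndfip2 and Nedd4l were higher in both H/R groups than in control, and their 2 H/R groups did not pass a test against each other. Nedd4 and Wwp1 were lower in both H/R groups than in control, again with no called difference between the 2 H/R groups. Itch was lowest in the LITAF group, but only its difference from control passed, and the 3 groups of Ndfip1 had means of 159.7 CPM in LITAF, 161 CPM in H/R and 159 CPM in control libraries.

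The balance between related genes was compared as ratios of their reads. In a difference from control, H/R cannot be told apart from the vector or from how the control values were made. Whether reads shared by relatives were split is unknown. The ratio of Wwp2 to Wwp1 reads was 3.82, 10.2, 4.78 and 7.10 in LITAF libraries 1 to 4, against 3.77 to 4.89 across H/R libraries and 0.706 to 1.14 across control libraries. The ratio of Nedd4l to Nedd4 reads was 0.0220 to 0.0328 across LITAF libraries, against 0.0185 to 0.0241 across H/R libraries and 0.00739 to 0.0101 across control libraries. The ratio of Ndfip2 to Ndfip1 reads was 0.196 to 0.268 across LITAF libraries, against 0.223 to 0.250 across H/R libraries and 0.0994 to 0.211 across control libraries. For each of the first 2 ratios, all libraries that went through H/R lay above all control libraries, while LITAF library 2 lay below control library 1 for the third. Since reads were not divided by transcript length, a ratio compares groups and does not say which gene has more transcripts.

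**Figure D4:**
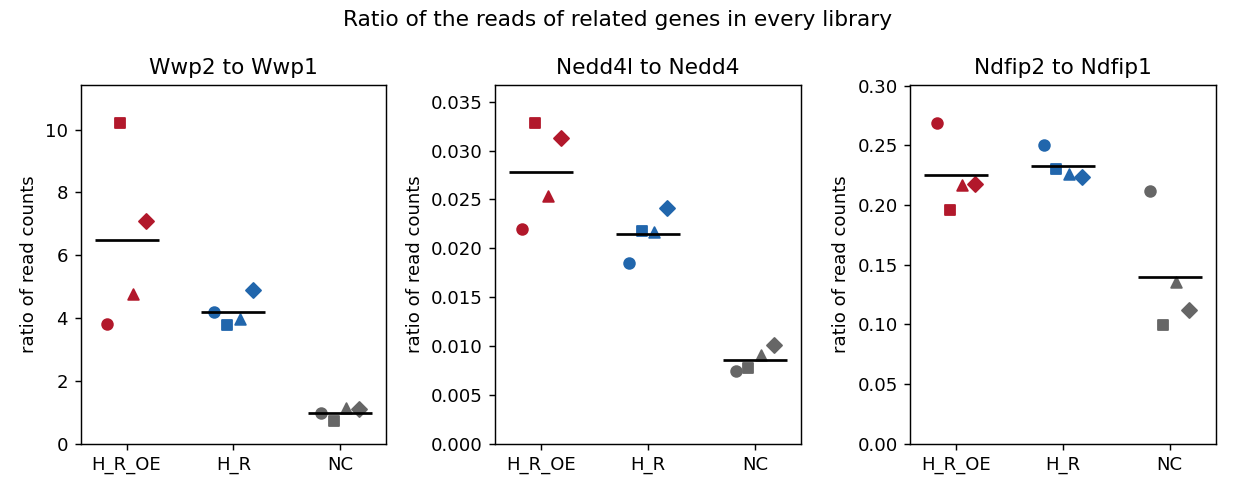
Ratio of the read counts of related genes (y axis, linear, from 0, no unit) in each library of the LITAF (H_R_OE), H/R (H_R) and control (NC) groups, with marker shapes for replicates 1 to 4 (circle, square, triangle, diamond) and the group mean as a line. The ratio of Wwp2 to Wwp1 is at 0.706 to 1.14 in control and at 3.77 or more in all 8 libraries after H/R.

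Across the 12 libraries, the members sorted the same way when log2 CPM values were correlated, as a description that shares the group differences above. Pearson's r was 0.95 between Nedd4 and Wwp1 and 0.92 between Wwp2 and each of Cdip1, Nedd4l and Ndfip2, while Wwp2 and Nedd4 stood at -0.86. The genes most like Litaf among 9758 with a mean log2 CPM of at least 2 were Fos (r = 0.98), Casp8 (0.97), Lif (0.97), Plagl1 (0.96) and Junb (0.96). Those most like Cdip1 were Fam32a (0.98), Wdr12 (0.97) and Ddost (0.97). Fos, an immediate early gene, averaged 115 CPM in LITAF libraries, against 42.1 CPM in H/R and 28.2 CPM in control libraries. Lif, a cytokine gene, averaged 167 CPM in LITAF libraries, against 54.8 CPM in H/R and 46.9 CPM in control libraries. Cdip1 and Litaf themselves stood at r = 0.445.

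Other genes of the pathway were counted from lists. The lists were chosen with earlier results of these data known, so their counts beside the share of all genes are a description and no test. Of the 4 other NEDD4-type ligase genes, Hecw1 had no reads in any library and 3 were tested. None of these passed for LITAF against H/R (median log2 0.18), beside 4.88% of all genes. In a fit of these 2 groups alone 1 rose, beside 9.78% of all genes called, and 1 rose without LITAF library 1, beside 11.2%. For H/R against control 2 rose and 1 fell (median log2 0.49), beside 31.8% of all genes in each direction. Hecw2 had 4.79, 5.25, 5.12 and 6.28 CPM in the H/R libraries, against 19.9, 28.6, 31.7 and 26.6 CPM in the control libraries, a 4.98-fold fall that exceeded that of any member. The Smurf genes, whose products act on TGF-beta and BMP signalling, rose by log2 0.49 ± 0.13 for Smurf1 and 0.52 ± 0.14 for Smurf2.

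Of the 15 adaptors and other partners with PPxY motifs that were tested, 3 rose for LITAF against H/R (median log2 0.16), beside 3.73% of all genes. None fell, beside 1.15%. Txnip, an arrestin-like protein that binds thioredoxin and limits glucose uptake, had 52.3, 61.3, 59.6 and 70.3 CPM in the LITAF libraries, against 36.2, 32.8, 27.6 and 23.8 CPM in the H/R libraries. The groups did not overlap, and the log2 fold change was 1.01 ± 0.15 with an adjusted p of 0.000821 by edgeR's quasi-likelihood test. Arrdc3, an arrestin-like adaptor of NEDD4-type ligases, had 97.3, 47.4, 76.5 and 52.0 CPM in the LITAF libraries, against 35.9, 37.5, 41.6 and 37.6 CPM in the H/R libraries. It rose by log2 0.84 ± 0.17, and its LITAF libraries came in the same order as those of Itch and Wwp1, as they did for 24.0% of all genes tested. Pmepa1, a membrane adaptor that dampens TGF-beta signalling, rose by log2 0.72 ± 0.16, and it did not pass without H/R library 4 (adjusted p 0.0505) or without LITAF library 4 (0.0602). For H/R against control 4 of these 15 genes rose and 4 fell (median log2 -0.02), near the 31.8% of all genes in each direction. Amot, a junctional scaffold of YAP signalling, was 4.25-fold lower and Arrdc3 1.63-fold lower.

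Of the reported binding partners of LITAF or CDIP1, none of 7 tested passed for LITAF against H/R (median log2 -0.16), beside 4.88% of all genes. For H/R against control 6 of 7 rose (median log2 0.75), beside 31.8% of all genes. Hgs and Tsg101, which code for ESCRT subunits that sort ubiquitinated cargo, rose by log2 0.96 ± 0.14 and 0.75 ± 0.11. Pdcd6, the calcium-binding partner of CDIP1, rose by log2 0.88 ± 0.10. Wwox was not analysed here.

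Of 10 tested genes that act on the ligases as kinases, adaptors or ubiquitin-conjugating enzymes, 1 rose for LITAF against H/R (median log2 -0.05), beside 3.73% of all genes. There were 2 with DESeq2 or in a fit of these 2 groups alone, and 1 gene of the list fell without LITAF library 1. These fits called 7.38%, 9.78% and 11.2% of all genes, in that order. The gene that rose was Sgk1, the kinase that restrains NEDD4L. It had 176, 149.8, 157 and 154 CPM in the LITAF libraries, against 87.8, 86.4, 86.9 and 93.2 CPM in the H/R libraries. The log2 fold change was 0.85 ± 0.11 with an adjusted p of 0.000162 by edgeR's quasi-likelihood test. Against control, Sgk1 fell in the H/R group by 0.65 on the log2 scale, and the difference of the LITAF group from control did not pass (log2 0.19, interval -0.03 to 0.42). In the H/R group 5 of the 10 genes fell and none rose against control (median log2 -0.27), beside 31.8% of all genes in each direction. Among those that fell were Sgk3, 4.06-fold lower, and Ywhah, an adaptor that binds phosphorylated NEDD4L, 2.14-fold lower.

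Reported substrates of the ligases rose in 2 of 13 tested genes for LITAF against H/R (median log2 0.21), beside 3.73% of all genes, and none fell, beside 1.15%. Junb, whose product ITCH ubiquitinates, rose by log2 1.18 ± 0.11 with an adjusted p of 5.65e-06 by edgeR's quasi-likelihood test, and Jun by log2 0.45 ± 0.10 with an adjusted p of 0.0137. Jun did not pass without H/R library 2 or 3 or without LITAF library 4 (adjusted p 0.0643, 0.0689 and 0.0562). Cacna1c, the L-type calcium channel gene, was at log2 0.07 ± 0.16 in this comparison. For H/R against control it fell, at log2 -0.83 ± 0.16 with an adjusted p of 0.000201 by the same test.

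For H/R against control, 4 of the 13 substrate genes rose and 5 fell (median log2 0.08), near the 31.8% of all genes in each direction. Only 3 fell with upper-quartile scaling, with library totals alone, or without control library 4 or H/R library 1, 2 or 3. Slc11a2, the iron transporter that NDFIP1 and WWP2 regulate, was 1.74-fold lower and Klf2 1.97-fold lower, while Jun rose 1.71-fold. LITAF against H/R and H/R against control share the H/R libraries, so for Sgk1 and Arrdc3 the fall in one comparison and the rise in the other are not separate evidence.

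Tnf, the gene after which LITAF was named, had 0 to 2 reads in every library and was not tested. Among 6 tested genes of the TNF route, 1 rose for LITAF against H/R (median log2 0.03), beside 3.73% of all genes. It was Casp8, the initiator caspase downstream of death receptors and of CDIP1. It averaged 36.2 ± 1.44 CPM with the LITAF vector, against 9.08 ± 0.953 CPM with the empty vector (SD, 4 libraries per group), log2 1.99 ± 0.11. The TNF receptor gene Tnfrsf1a was at log2 0.02 ± 0.10 and Bid, the caspase 8 substrate, at log2 0.04 ± 0.12. For H/R against control, 2 of the 6 rose and 3 fell (median log2 -0.25), beside 31.8% of all genes in each direction. Tnfrsf1b was 4.65-fold lower at 0.560 ± 0.202 CPM in the H/R group and 2.63 ± 1.06 CPM in the control group, and Bid rose by log2 0.46 ± 0.12.

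**Figure D5:**
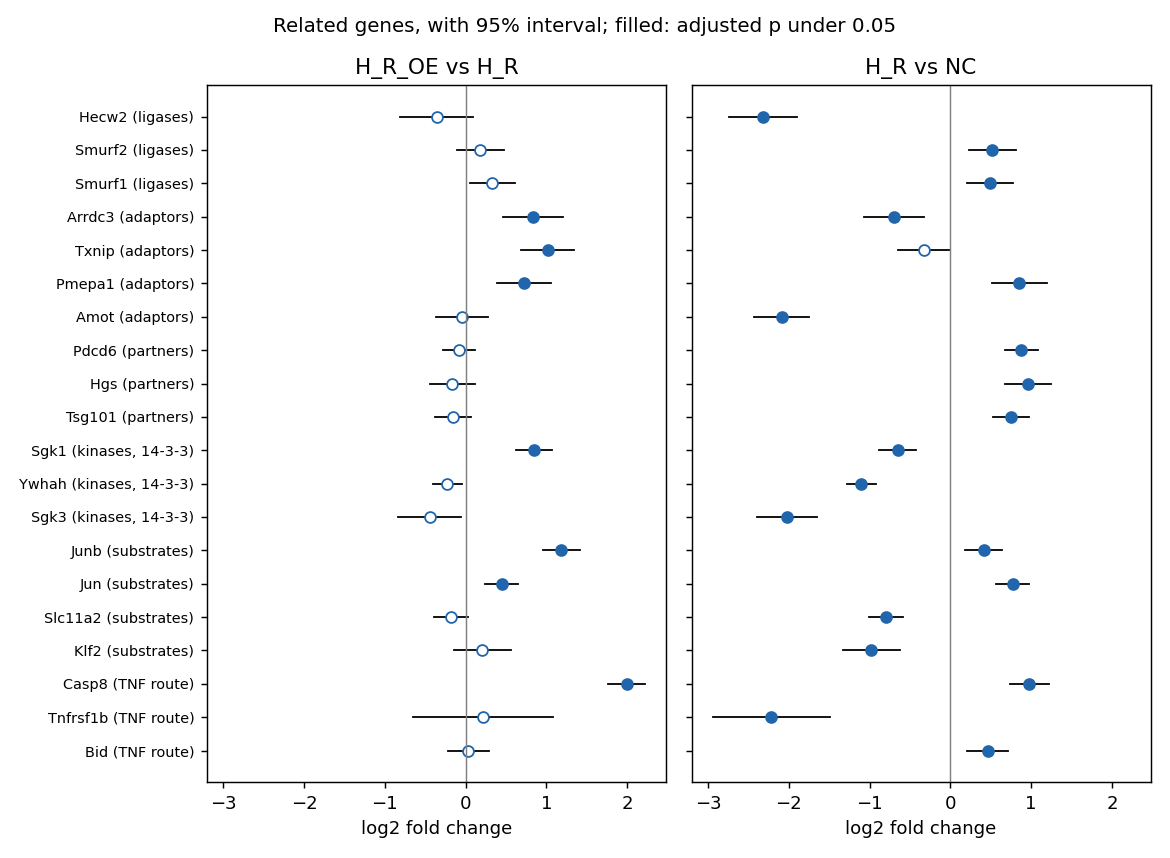
Log2 fold change (x axis) with 95% interval (line) of the named genes of the other lists, for LITAF against H/R (H_R_OE vs H_R) and H/R against control (H_R vs NC); filled points have an adjusted p under 0.05, and the list is in parentheses. Sgk1 and Arrdc3 lie above 0 in the first panel and below 0 in the second.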

How the data were processed

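The authors deposited estimated counts, headed as raw read counts with Ensembl rat gene IDs per the file headers; they were not all whole and were rounded. The submitters' processing notes name DESeq2 and edgeR without a role or version. The aligner, the counter, the annotation, strandedness and the genome build were not given in the sources used here. Of the gene IDs on several rows, 56 had identical rows and 1 row was kept; 72 had differing control values and were left out, none of them a member, which left 16002 IDs. The members are distinct genes, but whether reads shared by relatives were split is unknown.

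Genes were filtered with edgeR's filterByExpr (11398 left), scaled by TMM, and tested in 1 fit of all 12 libraries with edgeR's quasi-likelihood test (robust; edgeR 4.0.16, limma 3.58.1, R 4.3.3; DESeq2 1.42.0 as an alternative), two-sided, adjusted by Benjamini-Hochberg across the table, and called under 0.05. The SE is the size of the log2 fold change over the square root of F. Precision is limited by counting error in low genes and by the spread between libraries, a biological coefficient of variation of 14.5%. Correlations used log2 CPM with a prior count of 2. The test was tried on simulated counts drawn independently for each library. These counts held neither the axis within the LITAF group nor the shared deviations of H/R and control libraries, so the trial does not cover these. In the list of substrates, 2 genes are not reported here and were left out of its counts. Members and lists were chosen with earlier results of these data known. Named genes are the members, the list genes that passed for LITAF against H/R, up to 3 per list with the smallest adjusted p for H/R against control, and all other NEDD4-type ligases; Cacna1c and Tnfrsf1a were named in addition, after their values were seen. H/R and control numbers pair the libraries by the data: each of the 4 same-number correlations was over 0.1 (0.30 to 0.57).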

Additional observations from a re-analysis of the deposited data

Results flagged for a closer look

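In 87 groups of 4 libraries, from the 9 members and 20 other named genes, 2 held a library far from the other 3; chance would flag about 1 in 20 groups, and none of the 2 was a member. Hgs was at 152 CPM in H/R library 4 and at 127 to 129 CPM in the other 3. Smurf2 was at 123 CPM in H/R library 2 and at 134 to 136 CPM in the other 3.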

How the results depend on the processing

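The number of members called was 1 for LITAF against H/R and 7 for H/R against control under every other scaling, filter, tool and fit tried, and 8 for LITAF against control. Leaving out 1 library gave 1 to 3, 7, and 7 to 8 members. Litaf stayed called in all 3 comparisons, at log2 1.94 to 2.06 for LITAF against H/R. Over all genes, 556 were called for LITAF against H/R, 877 with DESeq2, 1098 in a fit of these 2 groups alone, 873 with the replicate block, 887 with the block in the 2 groups alone, and 244 to 1285 with 1 library left out. Without LITAF library 1 it was 1285, and without LITAF library 3 or 4 or any 1 H/R library it was 244 to 365. Of the calls, 65.8% were rises with the replicate block. Library totals moved the median of all genes for H/R against control to log2 0.13, from 0.01 with TMM. The replicate block changed no member's call in any comparison; LITAF and H/R numbers did not pair, with correlations of 0.05 to 0.20, and 1 of 4 libraries correlated best with its own number.

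Differences that did not pass changed sign as follows. Wwp2 for LITAF against H/R was at log2 0.0032 with DESeq2 size factors, 0.0041 without the low-count filter, 0.0013 with DESeq2, and -0.049 to 0.035 with 1 library left out. Ndfip1 for LITAF against control was at -0.0046 with DESeq2 size factors, -0.0055 with DESeq2, and -0.12 to 0.13 with 1 library left out, and Itch for H/R against control was at 0.011 with library totals. With 1 library left out, Ndfip1 ran from -0.11 to 0.14 for H/R against control and from -0.035 to 0.014 for LITAF against H/R, Nedd4 from -0.17 to 0.036 and Ndfip2 from -0.15 to 0.020 for LITAF against H/R. The cause was not tested. Cdip1, Wwp1 and Itch, with 112 to 302, 97 to 452 and 503 to 1280 reads per library, had the widest intervals of the members. Width did not follow read number alone, as Nedd4l, with 259 to 577 reads, had narrower intervals than Itch.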
